A study of Homo sapiens with 6 samples.

Results

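The 10 core genes of condensin and cohesin were followed in MCF10DCIS.com (hereafter MCF10DCIS), a human breast cancer cell line that forms lesions resembling ductal carcinoma in situ. They were 7 condensin genes (SMC2, SMC4, NCAPD2, NCAPG, NCAPH, NCAPD3 and NCAPG2) and 3 cohesin genes (SMC1A, SMC3 and RAD21), taken by name from the 26334 genes of the deposited count table, and all 10 were present. The study compared cells silenced for WDR5, a core subunit of histone H3 lysine 4 methyltransferase complexes, with control cells, in 3 libraries per group. Both groups were grown in DMEM/F12 with 5% horse serum, were infected with a pRSI vector with TagRFP and puromycin resistance, and were selected with puromycin at 3 µg/ml. In the shLuc group the U6 promoter of the vector drove a hairpin against luciferase, and in the shWDR5 group a hairpin against WDR5, for which the study's methods describe 2 pooled hairpins in this line. The libraries used here came from 1 cell line, so the values describe transduced MCF10DCIS populations. The study also sequenced RNA of patient-derived xenografts, which are not part of these libraries.

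Condensin and cohesin are ring-shaped ATPase complexes that organise chromosomes. In each, a pair of SMC proteins forms a V whose heads bind ATP, and a kleisin subunit closes the ring. Cohesin holds sister chromatids together from DNA replication to anaphase and extrudes chromatin loops in interphase, whereas condensin compacts and stiffens chromosomes in mitosis. SMC2 and SMC4 are shared by both condensins. Condensin I adds the kleisin NCAPH with NCAPD2 and NCAPG, and reaches chromosomes once the nuclear envelope has broken down. Condensin II adds NCAPH2 with NCAPD3 and NCAPG2, and is nuclear throughout the cycle. Many of these subunits are known to be transcribed more in dividing cells.

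The libraries held between 38218108 and 57640167 assigned counts each, and 16117 genes had enough counts to be tested. WDR5 itself, which checks the labels, measured 16.5, 15.2 and 16.1 RPKM (counts scaled by library size and by exon length) in the shLuc libraries and 7.34, 7.65 and 6.52 RPKM in the shWDR5 libraries, a fall of 1.15 ± 0.07 (SE) on the log2 scale (adjusted p = 1.86e-07, edgeR). All 10 epithelial markers looked for were detected, whereas 8 of 13 fibroblast, leukocyte and endothelial markers stayed under 1 CPM (counts scaled by library size alone) in every library, and COL1A1 was the highest of the others at up to 22.7 CPM. Summed over each list, epithelial markers ranged from 9459 to 9684 CPM in shLuc and from 11849 to 12750 CPM in shWDR5, and fibroblast markers from 21.8 to 23.0 CPM and from 14.5 to 17.6 CPM. The epithelial markers did not move one way. Of 10, 5 were called higher and 2 lower, beside 26.6% and 29.9% of all tested genes. Those higher were KRT5, KRT14, KRT17, KRT6A and TP63, by 0.91, 1.29, 0.94, 1.83 and 0.42 on the log2 scale. The adhesion genes CDH1 and EPCAM were lower, by 1.03 and 0.33. KRT8, KRT18 and ITGA6 were not called. Mean CPM of KRT17 went from 2159 in shLuc to 4131 in shWDR5, and that of KRT5 from 820 to 1546. These genes were named after their values were seen. The leukocyte sum spanned 13.1 to 15.6 CPM in shLuc and 13.1 to 15.1 CPM in shWDR5, and the endothelial sum 7.58 to 7.93 CPM and 4.71 to 5.36 CPM. Their part in the results was not tested.

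The promoter windows of the members are shown first, and were compared for elements known from cell-cycle genes. RefSeq windows (GRCh38.p14, 250 bases before to 50 after an annotated start, on the gene's strand) were found for 9 of the 10 members, 13 windows in all; RAD21 had none. They were searched on both strands for CCAAT (bound by NF-Y), TTTGAA (the cell cycle gene homology region, bound by the MuvB core of the DREAM complex), CACGTG (the E-box of MYC and MAX) and an E2F-type motif, with no overlap excluded. The E2F-type motif was any of the words TTCCCGC (with a central run of C), its variant with a central CpG, TTCGCGC, the form that begins with TTG and continues as in TTGCCGC, and the form with a pair of central G, TTGGCGC. The 4 windows printed below belong to the genes with the largest and the smallest fall in each complex, NCAPG2 and NCAPD3 for condensin and SMC1A and SMC3 for cohesin. Where a gene had a pair of windows, the one with more matches is given, and matches are in capitals in either orientation, so that TTTGAA on the opposite strand reads TTCAAA. They lie at chr7:158704755-158705054 (minus strand), chr11:134223918-134224217 (minus), chrX:53422605-53422904 (minus) and chr10:110567445-110567744 (plus).
NCAPG2: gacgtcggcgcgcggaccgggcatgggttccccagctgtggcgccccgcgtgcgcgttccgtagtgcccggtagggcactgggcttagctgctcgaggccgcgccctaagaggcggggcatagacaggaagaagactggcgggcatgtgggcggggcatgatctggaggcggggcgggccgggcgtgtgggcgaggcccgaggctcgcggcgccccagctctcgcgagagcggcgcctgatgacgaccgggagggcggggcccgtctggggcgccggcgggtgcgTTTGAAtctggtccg
NCAPD3: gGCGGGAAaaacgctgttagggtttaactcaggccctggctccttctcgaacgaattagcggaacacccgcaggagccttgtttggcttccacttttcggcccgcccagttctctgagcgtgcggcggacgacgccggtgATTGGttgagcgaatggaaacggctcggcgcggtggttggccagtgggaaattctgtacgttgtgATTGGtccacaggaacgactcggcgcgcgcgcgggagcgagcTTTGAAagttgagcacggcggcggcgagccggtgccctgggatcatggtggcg
SMC1A: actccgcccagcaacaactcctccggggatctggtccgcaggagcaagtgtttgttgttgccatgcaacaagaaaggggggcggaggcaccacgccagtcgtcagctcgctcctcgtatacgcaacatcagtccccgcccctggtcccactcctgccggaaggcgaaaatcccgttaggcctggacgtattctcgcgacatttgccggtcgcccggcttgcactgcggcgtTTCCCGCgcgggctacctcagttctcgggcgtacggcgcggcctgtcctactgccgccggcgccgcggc
SMC3: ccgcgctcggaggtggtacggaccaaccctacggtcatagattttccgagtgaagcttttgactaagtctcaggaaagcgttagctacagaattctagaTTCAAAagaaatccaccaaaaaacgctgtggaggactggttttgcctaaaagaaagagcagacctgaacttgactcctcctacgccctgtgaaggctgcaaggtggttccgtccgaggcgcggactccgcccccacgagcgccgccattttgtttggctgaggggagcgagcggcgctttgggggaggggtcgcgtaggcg

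TTTGAA was present in at least 1 window of 7 of the 9 members (SMC2, SMC4, NCAPD2, NCAPG, NCAPD3, NCAPG2 and SMC3), beside 14.2% of the 11381 tested genes with a window and 18.2% of all 27305 genes. An E2F-type motif was present in 4 of 9 members (SMC4, NCAPG, NCAPD3 and SMC1A), beside 23.4% of tested genes. CCAAT was found in 3 members (NCAPD2, NCAPH and NCAPD3), beside 42.7% of tested genes, and CACGTG in 0 of 9, beside 11.9%. The positions of TTTGAA differed between members. Counted from the start site, its 5′-most base on the gene's strand stood at position -3 in SMC2 and NCAPD3, at -35 in NCAPG, at 36 in NCAPG2, at -75 in SMC4, at -145 in NCAPD2 and at -151 in SMC3. NCAPG was the member in which an E2F-type motif (position -45) and TTTGAA (position -35) lay nearest to each other. NCAPD2 held 4 CCAAT matches, at positions -199, -170, -70 and -30. These matches describe letters in the windows, and binding was not measured here. Because the members were chosen with earlier results of these data known, their shares were not tested against those of other genes. A part of these motifs in the changes of the members was not tested.

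All 10 members were lower in WDR5-silenced cells, and in each of them every shWDR5 library lay below every shLuc library. The fall ranged from 0.53 (NCAPD3) to 0.93 (NCAPG2) on the log2 scale, which left 69.3% to 52.3% of the control level. Over all tested genes 56.5% were called at an adjusted p under 0.05, 29.9% lower and 26.6% higher. All 3 shWDR5 libraries lay below all 3 shLuc libraries in 32.4% of tested genes. These shares stand beside 10 of 10 members. The members were chosen with earlier results of these data known, so the excess was not tested. The median log2 change was -0.69 over the members and -0.01 over all genes tested. Under the stricter rule stated by the study (a log2 change of at least 0.6 with over 0.5 RPKM), 7 of 10 members were called lower, beside 10.4% of tested genes. The 3 that this rule left out were NCAPG, SMC3 and NCAPD3, with log2 changes of -0.58, -0.55 and -0.53, and the nearest inside were NCAPH and NCAPD2, each at -0.65. Among the 5011 tested genes whose mean abundance fell within the range of the members, 33% were called lower. A library measures each gene as a share of its own total, so that less mRNA per cell and fewer cells of a kind, such as dividing cells, cannot be told apart.

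**Figure D1:**
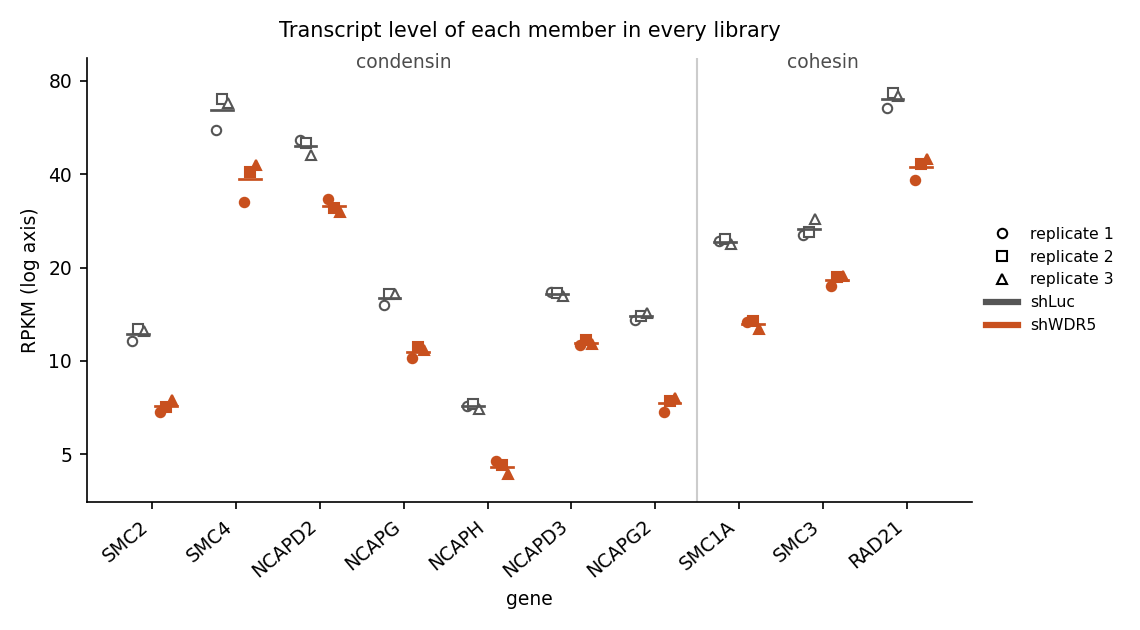
RPKM on a log axis (vertical) for each of the 10 genes (horizontal) in the 3 shLuc libraries (open grey symbols) and the 3 shWDR5 libraries (filled orange symbols); symbol shape gives the replicate number and the short line the group mean. In every gene the 3 shWDR5 points lie below the 3 shLuc points, while the order of the genes by mean level is the same in both groups.

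The shared ATPases were considered first. SMC2, which pairs with SMC4 at the hinge, measured 11.6, 12.6 and 12.5 RPKM in shLuc and 6.84, 7.09 and 7.49 RPKM in shWDR5. It fell by 0.78 ± 0.06 (SE) on the log2 scale (adjusted p = 9.67e-07). SMC4 measured 55.5, 69.7 and 68.1 RPKM in shLuc and 32.4, 40.7 and 42.9 RPKM in shWDR5, and fell by 0.74 ± 0.12 (adjusted p = 0.00129). Replicate 1 was the lowest library of its group for SMC4 in both conditions, which gave this gene the widest spread of the members (coefficient of variation 12% in shLuc and 14.3% in shWDR5, against 1.3% to 7.9% in the other 9). Without replicate 1 of either group the fall of SMC4 was 0.70 ± 0.06 (adjusted p = 1.2e-06). SMC4 transcripts were 4.79 to 5.51 times as abundant per length as those of SMC2 in the shLuc libraries and 4.74 to 5.75 times in the shWDR5 libraries, ranges that overlapped.

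Among the condensin I subunits, the HEAT-repeat protein NCAPD2 was the most abundant. It measured 51.7, 50.5 and 46.1 RPKM in shLuc and 33.4, 31.0 and 30.3 RPKM in shWDR5, and fell by 0.65 ± 0.06 (adjusted p = 4.25e-06). NCAPG, the second HEAT-repeat subunit, measured 15.1, 16.4 and 16.4 RPKM in shLuc and 10.2, 11.1 and 10.8 RPKM in shWDR5, a fall of 0.58 ± 0.06 (adjusted p = 9.06e-06). The kleisin NCAPH was the least abundant of the 10 genes. It measured 7.18, 7.24 and 7.01 RPKM in shLuc and 4.74, 4.62 and 4.32 RPKM in shWDR5, and fell by 0.65 ± 0.06 (adjusted p = 4.38e-06). The 3 condensin I genes thus lay close together, with 95% intervals of -0.78 to -0.51 for NCAPD2, -0.71 to -0.44 for NCAPG and -0.78 to -0.51 for NCAPH.

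The condensin II subunits lay further apart. NCAPD3, the counterpart of NCAPD2, measured 16.6, 16.5 and 16.2 RPKM in shLuc and 11.2, 11.6 and 11.3 RPKM in shWDR5. Its fall of 0.53 ± 0.05 was the smallest of the 10 (adjusted p = 5.79e-06). NCAPG2, the counterpart of NCAPG, measured 13.6, 13.9 and 14.3 RPKM in shLuc and 6.86, 7.44 and 7.58 RPKM in shWDR5. Its fall of 0.93 ± 0.06 was the largest of the 10 (adjusted p = 1.98e-07), and its 95% interval (-1.07 to -0.80) did not overlap that of NCAPD3 (-0.64 to -0.41) or that of NCAPG. The ratio of NCAPG to NCAPG2 within a library accordingly shifted from 1.11 to 1.17 in shLuc to between 1.43 and 1.49 in shWDR5, with no overlap. The ratio of NCAPD2 to NCAPD3 spanned 2.84 to 3.11 in shLuc and 2.66 to 2.97 in shWDR5, ranges that overlapped. NCAPH2, the condensin II kleisin, which was not in the set, measured 15.2, 14.9 and 13.3 RPKM in shLuc and 11.1, 10.0 and 9.84 RPKM in shWDR5, and fell by 0.49 ± 0.07 (adjusted p = 0.000145).

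In cohesin, SMC1A measured 24.3, 24.6 and 23.8 RPKM in shLuc and 13.3, 13.4 and 12.7 RPKM in shWDR5, a fall of 0.88 ± 0.05 (adjusted p = 1.08e-07). Its partner SMC3 measured 25.4, 26.1 and 28.6 RPKM in shLuc and 17.5, 18.6 and 18.8 RPKM in shWDR5, and fell by 0.55 ± 0.06 (adjusted p = 1.61e-05). The 2 SMC proteins form a heterodimer, yet their transcripts fell by different amounts, with 95% intervals of -0.997 to -0.77 for SMC1A and -0.68 to -0.41 for SMC3. The ratio of SMC1A to SMC3 was 0.957, 0.944 and 0.834 in shLuc and 0.761, 0.723 and 0.678 in shWDR5, again without overlap. RAD21, the kleisin that separase cleaves at anaphase, was the most abundant member. It measured 65.2, 73.1 and 71.6 RPKM in shLuc and 38.4, 43.2 and 44.8 RPKM in shWDR5, and fell by 0.73 ± 0.07 (adjusted p = 3.82e-06).

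**Figure D2:**
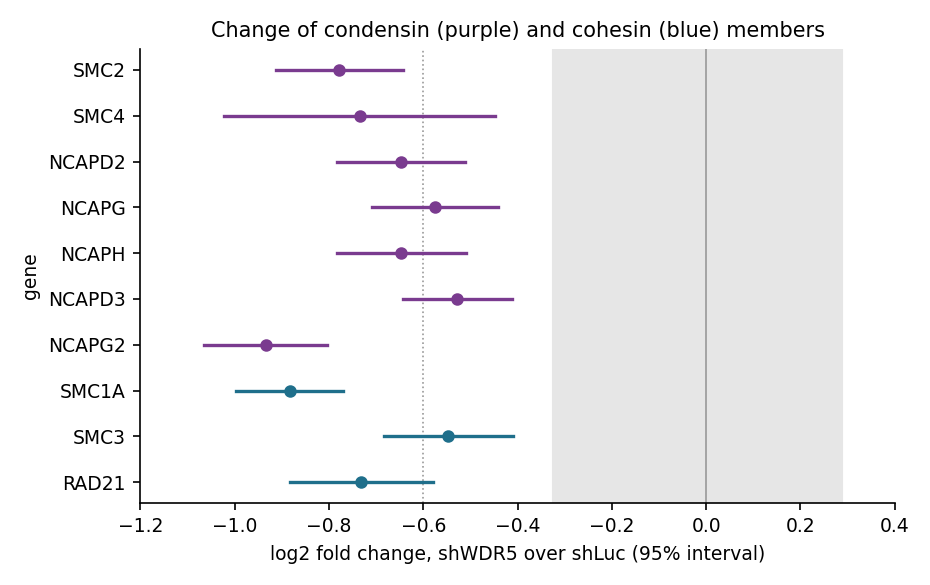
Log2 fold change of shWDR5 over shLuc (horizontal) for each gene (vertical), as a point with its 95% interval, for condensin (purple) and cohesin (blue); the grey band spans the middle 50% of tested genes (-0.33 to 0.29) and the dotted line marks -0.6. All 10 intervals lie to the left of the band, with NCAPG2 and SMC1A furthest from 0 and NCAPD3 and SMC3 nearest.

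Condensin and cohesin did not separate by the size of the fall. The median log2 change was -0.65 over the 7 condensin genes and -0.73 over the 3 cohesin genes, a difference of 0.08, whereas the genes within condensin spanned -0.93 to -0.53 and those within cohesin -0.88 to -0.55. This difference rested on single libraries, since it was -0.01 without shWDR5 replicate 1 and 0.16 without shWDR5 replicate 3. Between these it was 0.02 without shLuc replicate 3, 0.14 without shLuc replicate 1, and 0.03 when means were taken in place of medians. In each library the mean log2 RPKM of condensin minus that of cohesin was -0.87, -0.86 and -0.91 in shLuc and -0.84, -0.86 and -0.86 in shWDR5. The group means of this difference, -0.88 ± 0.03 and -0.85 ± 0.01 (SD, n = 3), lay 0.03 apart, and although the 2 ranges did not overlap, the gap between their nearest libraries was smaller than the spread within shLuc. No test was made of this score, as its genes were not a random choice. Summed over each complex, the condensin genes amounted to 171 to 187 RPKM in shLuc and 106 to 115 RPKM in shWDR5, and the cohesin genes to 115 to 124 RPKM and 69.1 to 76.3 RPKM. Within condensin, the mean change in log2 RPKM was -0.62 for the 3 condensin I genes and -0.73 for the 2 condensin II genes, the latter made of a large and a small fall.

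**Figure D3:**
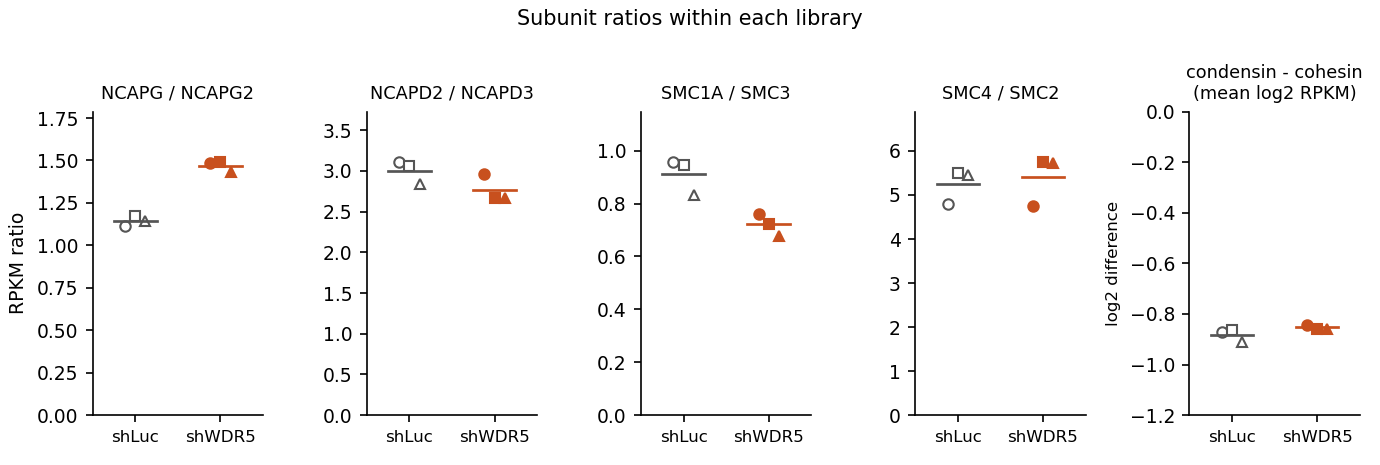
Ratio of RPKM values of paired subunits in each library (first 4 panels) and mean log2 RPKM of condensin minus cohesin (last panel), for shLuc (open grey) and shWDR5 (filled orange), with lines at group means. NCAPG/NCAPG2 is higher and SMC1A/SMC3 lower in all 3 shWDR5 libraries, SMC4/SMC2 overlaps between groups, and the last panel differs by 0.03 on average.

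The order of the 10 genes by mean RPKM was the same in both groups: RAD21, SMC4, NCAPD2, SMC3, SMC1A, NCAPD3, NCAPG, NCAPG2, SMC2 and NCAPH. In shLuc the neighbours RAD21 (70.0 ± 4.2 RPKM, SD, n = 3) and SMC4 (64.4 ± 7.7) overlapped, as did NCAPD3 (16.4 ± 0.2) and NCAPG (16.0 ± 0.7). In shWDR5 the overlapping neighbours were RAD21 (42.1 ± 3.3) and SMC4 (38.7 ± 5.5), SMC4 and NCAPD2 (31.5 ± 1.6), and NCAPG2 (7.29 ± 0.38) and SMC2 (7.14 ± 0.33). RPKM divides by the summed length of all annotated exons, from 3750 bases for RAD21 to 9930 bases for SMC1A, and a gene that uses shorter transcripts than annotated is understated. Counts of the members ran from 1188 to 15746 per library, which gives counting errors of 2.9% to 0.8%; these cover counting only.

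The members lie on 10 different chromosomes in hg19, the build of the count table. They were found at 9:106856541-106903700 (SMC2), 3:160117092-160152749 (SMC4), 12:6603298-6641132 (NCAPD2), 4:17812436-17846487 (NCAPG), 2:97001479-97042833 (NCAPH), 11:134022337-134094426 (NCAPD3), 7:158423861-158497522 (NCAPG2), X:53401070-53449677 (SMC1A), 10:112327449-112364392 (SMC3) and on chromosome 8 (RAD21). Counts covered merged exons, from 14 blocks in RAD21 to 35 in NCAPD3. Whether counting used strand is not given in the sources used here, and 3 members share exon bases with a gene on the opposite strand. LCORL overlaps 32.9% of the exon bases of NCAPG and was much lower, at 1.04 ± 0.18 RPKM in shLuc and 0.82 ± 0.22 RPKM in shWDR5. How reads in shared bases were counted is not given in the sources used here either. The RPKM of NCAPG, its rank and its ratio to NCAPG2 carry this limit whatever the level of LCORL. IFT80 overlaps 3.99% of SMC4 and itself fell by 0.49 ± 0.14 (adjusted p = 0.0149; 0.0737 without shLuc replicate 3), and RAD21-AS1, with 3 to 13 counts per library, lies in the 6.83% of RAD21 shared with other genes. Likewise 22.6% of NCAPH2 is shared with SCO2, which rose by 0.43 ± 0.13 (adjusted p = 0.0143), a call lost with DESeq2 (0.0554) and without shLuc replicate 3 (0.0538). LCORL was called lower only without shWDR5 replicate 3 among the libraries left out (log2 change -0.52, adjusted p = 0.03). These neighbours were named after their values were seen.

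**Figure D4:**
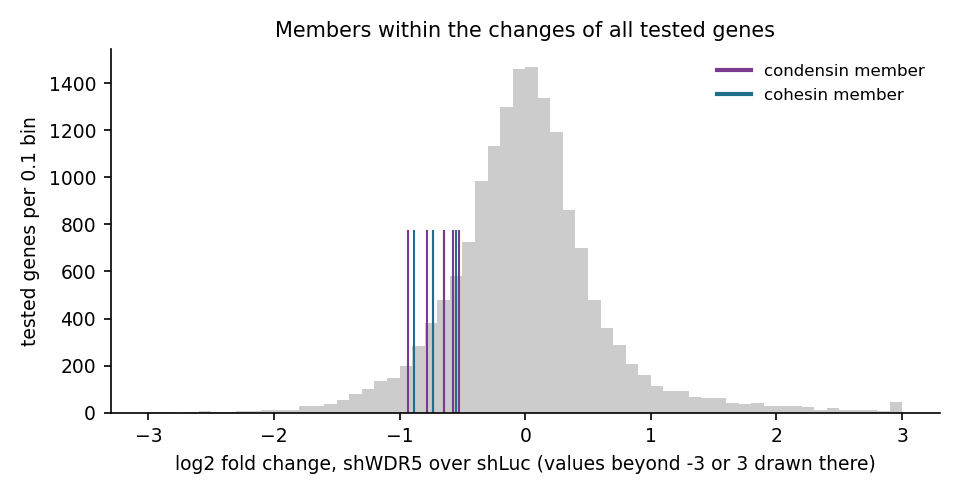
Number of tested genes (vertical) per 0.1 bin of log2 fold change of shWDR5 over shLuc (horizontal), with the 7 condensin (purple) and 3 cohesin (blue) genes as lines of arbitrary height. The members lie between percentiles 5.0 and 15.2 of the 16117 tested genes, and the lines of NCAPD2 and NCAPH coincide.

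The machinery around the 10 genes was read from the same fit. Of 32 associated genes, 31 could be tested, and 18 were called lower, 2 higher and 11 neither, with a median log2 change of -0.35. The shares over all tested genes were 29.9% lower and 26.6% higher. All 4 genes of cohesin protection and cleavage were called lower. ESPL1, the separase protease, fell by 0.99 ± 0.07 (adjusted p = 3.15e-07) and PTTG1, its inhibitor securin, by 0.79 ± 0.06 (adjusted p = 1.15e-06). The shugoshins SGO1 and SGO2, which protect centromeric cohesin from removal, fell by 0.96 ± 0.12 and 0.78 ± 0.21 (adjusted p = 2.62e-05 and 0.0179). In the acetylation cycle of SMC3, the S-phase acetyltransferase ESCO2 fell by 1.18 ± 0.13 (adjusted p = 2.82e-05) and the deacetylase HDAC8 by 0.66 ± 0.08 (adjusted p = 3.83e-05). CDCA5, or sororin, which stabilises cohesin on replicated DNA, fell by 0.68 ± 0.07 (adjusted p = 7.56e-06). PDS5B, a regulator of cohesin release, fell by 0.38 ± 0.07 (adjusted p = 0.000704).

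Of the 11 genes not called, 7 were cohesin partners or CTCF, and these were singled out after they were seen. The cohesin subunit STAG1 measured 9.27 ± 0.55 RPKM in shLuc and 8.83 ± 0.43 RPKM in shWDR5 (SD, n = 3), with a log2 change of -0.07 (95% interval -0.21 to 0.08). STAG2 had a log2 change of -0.19 (-0.40 to 0.03), the loader NIPBL -0.17 (-0.32 to -0.02, adjusted p = 0.052), the release factor WAPL 0.05 (-0.09 to 0.19), PDS5A -0.12 (-0.25 to 0.01), the acetyltransferase ESCO1 0.07 (-0.16 to 0.30) and CTCF, the insulator protein at which cohesin halts, 0.10 (-0.02 to 0.22). The intervals of these 7 genes lay above those of SMC1A, SMC3 and RAD21, with upper ends from -0.02 to 0.30 and lower ends no lower than -0.40. STAG2 was called lower without shLuc replicate 1 (adjusted p = 0.038), without shWDR5 replicate 3 (0.045) and without replicate 1 of both groups (0.0375). NIPBL was called lower without shLuc replicate 1 (0.0179), without replicate 1 of both groups (0.0252), without a filter on low counts (0.0329) and with scaling by library size alone (0.0178), under which PDS5A was also called (0.0294). ESCO1 turned to -0.024 without shWDR5 replicate 3, and the sign of WAPL turned with scaling by library size alone (log2 change -0.0055). MAU2, the partner of NIPBL, was likewise named after its value was seen, and was called higher (0.18 ± 0.07, adjusted p = 0.0417). Its call was lost under scaling by library size alone (adjusted p = 0.135), without a filter on low counts (0.0559) and without shLuc replicate 2 (0.0826) or 3 (0.123) or shWDR5 replicate 1 (0.16) or 2 (0.0538).

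**Figure D5:**
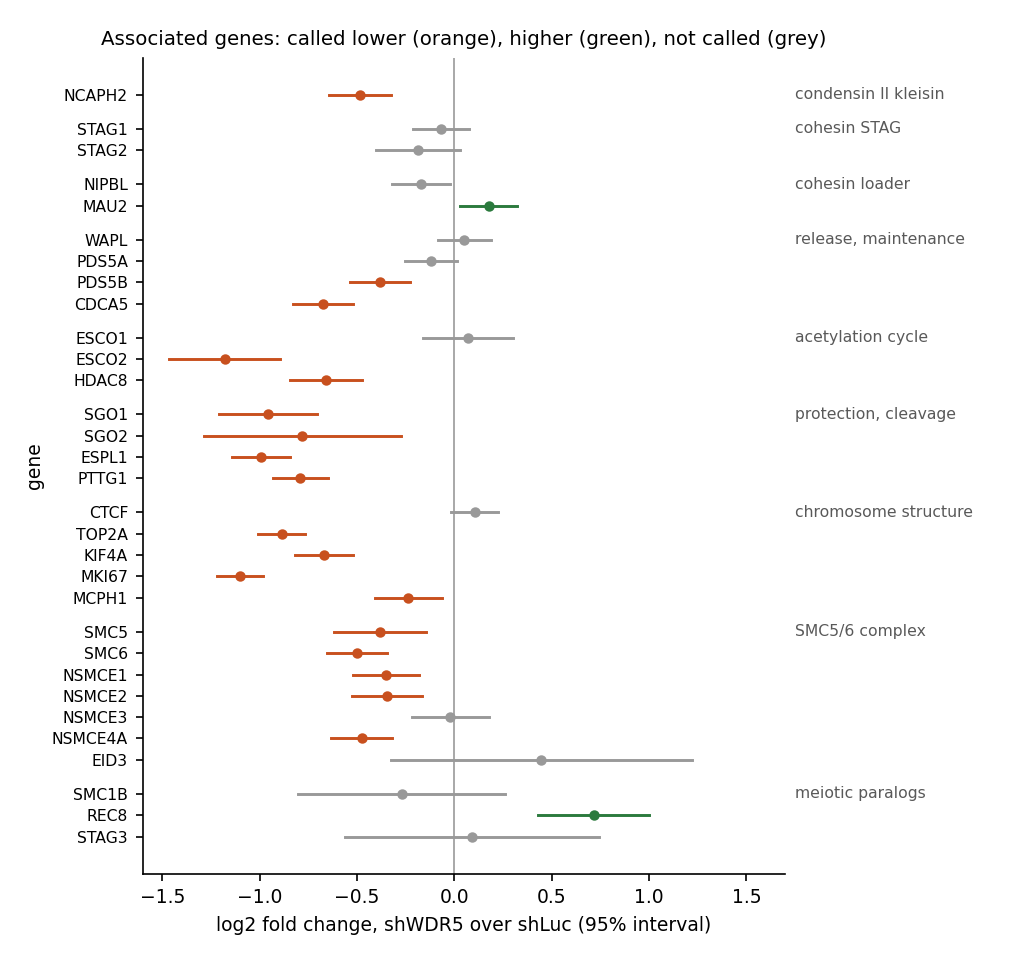
Log2 fold change of shWDR5 over shLuc with its 95% interval (horizontal) for the 31 tested associated genes (vertical), grouped by role; orange marks genes called lower, green called higher and grey neither. The 4 genes of cohesin protection and cleavage lie between -0.99 and -0.78, whereas the STAG and loader genes lie between -0.19 and 0.18.

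On the condensin side, TOP2A, the topoisomerase that works with condensin on mitotic chromosomes, fell by 0.89 ± 0.05 (adjusted p = 1.48e-07). The chromokinesin KIF4A fell by 0.67 ± 0.07 (adjusted p = 6.75e-06), and MKI67, which encodes the chromosome-coating antigen Ki-67, fell by 1.1 ± 0.05 (adjusted p = 3.3e-08). MCPH1, grouped with them by role and named after its value was seen, fell by less, 0.24 ± 0.08 (adjusted p = 0.022). In SMC5/6, the third SMC complex, 5 of 7 genes were called lower by smaller amounts, beside 29.9% of all tested genes. SMC6 fell by 0.50 ± 0.07 (adjusted p = 8.57e-05), SMC5 by 0.38 ± 0.11 (adjusted p = 0.012) and NSMCE4A by 0.48 ± 0.07 (adjusted p = 0.000134). The call of SMC5 was lost without shLuc replicate 3 (adjusted p = 0.0667), and that of SGO2 without a filter on low counts (0.0646).

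The meiotic paralogs were low. RAD21L1 had 0 counts in all 6 libraries. SMC1B had 25 to 48 counts and STAG3 14 to 25 counts per library, and their log2 changes were -0.27 (95% interval -0.80 to 0.26) and 0.09 (-0.56 to 0.74). REC8, the meiotic kleisin, was the exception. It had 113, 108 and 79 counts in shLuc (0.981, 1.19 and 0.84 RPKM) and 172, 215 and 183 counts in shWDR5 (1.59, 1.62 and 1.73 RPKM), and rose by 0.72 ± 0.13 on the log2 scale (adjusted p = 0.000578). Its level in shWDR5 remained far below that of RAD21, at 1.65 ± 0.07 RPKM against 42.1 ± 3.3 RPKM.

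Genes of the dividing cell moved with the members. Both lists used here were chosen with earlier results of these data known, and 29.9% of all tested genes were called lower. Of 12 S-phase genes, 11 were called lower, with a median log2 change of -0.70 and a range of -1.24 to -0.31. Of 12 G2/M genes all 12 were called lower, with a median of -0.73 and a range of -1.10 to -0.41. The member median of -0.69 lay beside these values. The part of a lower share of dividing cells in the fall of the members was not tested.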

How the data were processed

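Poly-A RNA of 3 shLuc and 3 shWDR5 libraries was sequenced (TruSeq RNA, Illumina HiSeq). Per the labels, the authors processed reads with TopHat2 2.1.0, featureCounts and edgeR 3.2.2 on hg19 and deposited raw counts per gene with exon lengths. Multi-mapping and strand settings are not given in the sources used here. A second file of the authors' own fold changes and p-values was not used.

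All 6 libraries entered 1 fit: edgeR 4.0.16 (R 4.3.3), filterByExpr, TMM factors, the robust quasi-likelihood test and Benjamini-Hochberg adjustment over 16117 genes, with an adjusted p under 0.05 called. SE is the absolute log2 change over the square root of F. RPKM used TMM-scaled library sizes and the deposited lengths. The fit was also run on simulated counts with few changed genes and the same dispersion for every gene. That setting is simpler than these data and gives no error rate for them. DESeq2 1.42.0 and limma 3.58.1 were alternatives. Total counts were 38218108 to 57640167 per library.

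The members and lists were chosen with earlier results of these data known. Named were all members, WDR5, NCAPH2, the meiotic paralogs and, of the other associated genes called, the 14 with the largest change; further genes are said to be named after their values were seen. The lists hold condensin and cohesin cofactors, S-phase and G2/M genes, and epithelial, fibroblast, leukocyte and endothelial markers. The labels do not state that replicates were separate cultures. The study's general statement on statistics speaks of biological triplicates without naming these libraries. The p-values therefore measure the spread between these libraries. Any 2 replicates differed by more than sampling noise.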

Additional observations from a re-analysis of the deposited data

How the results depend on the processing

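All 10 members kept their direction and their call under all 15 alternatives (3 other scalings, DESeq2, limma-voom, 2 other filters, a replicate block, each library left out in turn, and replicate 1 left out of both groups, the last chosen after seeing the data), with a highest adjusted p of 0.0115, for SMC4 without shLuc replicate 3. The study's rule, which adds a fold limit and an RPKM limit together, lowered the counts of all genes called from 4811 to 1684 (lower) and from 4292 to 1273 (higher), and those of associated genes from 18 to 10 and from 2 to 1. Associated genes called higher were also 1 with library size alone and 1 without a filter, and 1 to 2 with a library left out. The difference between condensin and cohesin was -0.0068 to 0.16 with a library left out, 0.046 without replicate 1 of both groups and 0.028 with means. STAG3 ranged from -0.13 (without shLuc replicate 1) to 0.41 with a library left out and was -0.20 without replicate 1 of both groups, WAPL was -0.0055 with library size alone, and ESCO1 ranged from -0.024 to 0.17 with a library left out; the cause was not tested.

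Same-numbered libraries of the 2 groups deviated together unevenly (r = 0.37, 0.04 and 0.12 across genes for replicates 1, 2 and 3), so that the numbers were not taken as pairs. With the replicate block, 5521 genes were called lower and 4909 higher, 7 condensin and 3 cohesin members stayed called, and 21 associated genes were called lower and 3 higher. STAG2, NIPBL, PDS5A, CTCF and LCORL, which were not called in the fit without the block, passed with it (adjusted p = 0.00259, 0.00277, 0.0147, 0.0458 and 0.0252). Not every library correlated best with its own number. The depth limits the meiotic paralogs, with at most 48 counts per library for SMC1B and 25 for STAG3; both were removed by the filter on RPKM, which gives no value for them.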
